A study of Homo sapiens with 4 samples.

Results

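Chaperones of the cytosol and heat shock genes were examined as a set of 32 genes, taken by name from a list of the heat shock factor HSF1 and of HSP70, HSP110, HSP90, HSP60, HSP10, small HSP, DNAJ, cochaperone and CCT genes. All 32 were found among 60649 gene rows, and all 32 were among the 18771 genes that passed the filter on low counts. The measurements come from RNA sequencing of FaDu, an established human cell line from a squamous cell carcinoma of the hypopharynx. Cells overexpressing TINCR-HA-FLAG (TINCR joined to HA and FLAG epitope tags) were set against cells with an empty vector, with 2 libraries per group. Both groups were grown in MEM alpha with fetal bovine serum. Replicates were technical by the design text, and p-values here therefore reflect only how far these 4 libraries vary. The 2 libraries of a group differed by more than counting error alone gives. The chi-square per degree of freedom between them was 14.3 with TINCR-HA-FLAG and 10.5 with the empty vector. The source of this spread was not tested. The sources used here name neither the promoter of the construct nor the number of clones. The name of the set does not hold for every member, because HSPA9, HSPD1 and HSPE1 encode chaperones of the mitochondrial matrix.

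Chaperones bind unfolded or aggregation-prone proteins and, in most families, use ATP to fold them or hand them on. HSP70 works with DNAJ proteins, which deliver substrates and stimulate its ATPase, and with nucleotide exchange factors. HSP90 acts later on clients such as kinases and steroid receptors, and the CCT ring encloses actin and tubulin. On heat or proteotoxic stress, HSF1 trimerizes, binds heat shock elements in DNA and raises transcription of the inducible genes, while constitutive family members serve folding in unstressed cells. Squamous carcinoma cells, like most tumour cells, carry high levels of several of these proteins.

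Library totals were 18151424 and 22331602 counts with TINCR-HA-FLAG and 17069533 and 17315648 with the empty vector. TINCR had 1921 and 2943 counts with TINCR-HA-FLAG, against 68 and 64 with the empty vector (log2 fold change 4.93, SE 0.17, adjusted p = 7.2e-07, edgeR quasi-likelihood test). All 6 squamous epithelial markers examined had counts in every library, with a summed level of 4067 and 4657 CPM with TINCR-HA-FLAG, against 4919 and 5639 CPM with the empty vector. Of these, KRT5 had 3314 and 3837 CPM with TINCR-HA-FLAG, against 4156 and 4759 CPM with the empty vector. KRT14 had 45.9 and 64.2 CPM, against 108 and 125 CPM in the same order, and CDH1 had 409.99 and 426 CPM, against 320 and 393 CPM. Both TINCR-HA-FLAG libraries lay below both empty vector libraries for KRT5, KRT14, KRT6A and TP63 and above them for CDH1, while EPCAM overlapped. Of all genes tested, 17.9% lay below in this way and 21.7% above. The leukocyte gene PTPRC and the endothelial genes PECAM1 and KDR stayed under 0.5 CPM in every library. The summed level of 5 haematopoietic markers was 9.34 and 13.2 CPM with TINCR-HA-FLAG, against 12.3 and 13.3 CPM with the empty vector, nearly all from CD14 and LYZ. The summed level of 6 fibroblast markers was 50.6 and 50.9 CPM with TINCR-HA-FLAG, against 45.9 and 41.8 CPM with the empty vector. Most of it came from COL1A1, with 33.6 and 33.6 CPM, against 26.9 and 24.0 CPM. DCN was also higher in both TINCR-HA-FLAG libraries, COL3A1 was lower in both (5.70 and 5.63 CPM, against 6.60 and 6.61 CPM), and COL1A2, PDGFRB and LUM overlapped. The sum of 4 endothelial markers, nearly all from VWF, was 13.8 and 12.6 CPM with TINCR-HA-FLAG, against 9.87 and 10.7 CPM. None of these genes was at 0 in all libraries, and their part in the results was not tested. In bulk RNA, fewer cells of a type and less RNA per cell cannot be told apart. Mitochondrial transcripts took 11.4% and 8.66% of counts with TINCR-HA-FLAG, against 9.43% and 7.58% with the empty vector.

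No gene of the set passed the edgeR test fitted by group alone. At an adjusted p under 0.05 in edgeR, 0 of 32 were called, where 0.549% of all genes tested were called in either direction (0.453% higher and 0.0959% lower). At an unadjusted p under 0.05 there were 7 lower and 1 higher, where 10.2% of all genes tested met that threshold, 4.31% on the lower side. DESeq2 called HSPD1 and CCT5 lower with TINCR-HA-FLAG, 2 of 32, where it called 0.314% of all genes tested lower, and no member higher, where it called 0.698% higher. CRYAB and HSPB8 received no adjusted p in DESeq2 and so could not be called by it. With the replicate number as a block, edgeR called 19 of 32 members lower, where it called 7.01% of all genes tested lower. The labels do not say that a number marks a shared culture or day, so the fit by group alone is used below. What the values share is a small tilt downwards. With TINCR-HA-FLAG, 28 of 32 genes had a negative log2 fold change, where 49.3% of all genes tested did. The median log2 fold change was -0.17, beside a median of 0.004 over all genes tested. Both TINCR-HA-FLAG libraries lay below both empty vector libraries for 19 of 32 genes, where 17.9% of all genes tested did so. They lay above for CRYAB alone, where 21.7% of all genes tested did so. Groups without overlap in either direction made up 39.6% of all genes tested. Among the 27 members with a mean of at least 50 CPM, 25 were negative, 17 lay wholly below and the median was -0.17. Among all 4392 genes at that level 59.5% were negative, 25.8% lay wholly below and the median was -0.03.

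The size of this tilt depended on single libraries. The median log2 fold change was -0.10 without TINCR-HA-FLAG replicate 1, -0.28 without TINCR-HA-FLAG replicate 2, -0.27 when empty vector replicate 1 was left out and -0.11 when its replicate 2 was. The number of negative values under these omissions lay between 25 and 30 of 32. Within both groups the library numbered 2 was above the library numbered 1 for 27 of 32 genes, where 33.2% of all genes tested showed that. Summed over the set, the level was 10115 and 11475 CPM with TINCR-HA-FLAG, against 11786 and 12843 CPM with the empty vector. The higher TINCR-HA-FLAG library and the lower empty vector library therefore lay closer to each other than the libraries within either group did. Between libraries of the same number, the TINCR-HA-FLAG library was the lower one for both numbers. Each omission above also left the numbers 1 and 2 unevenly spread over the groups. The labels do not say what a shared number marks.

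**Figure D1:**
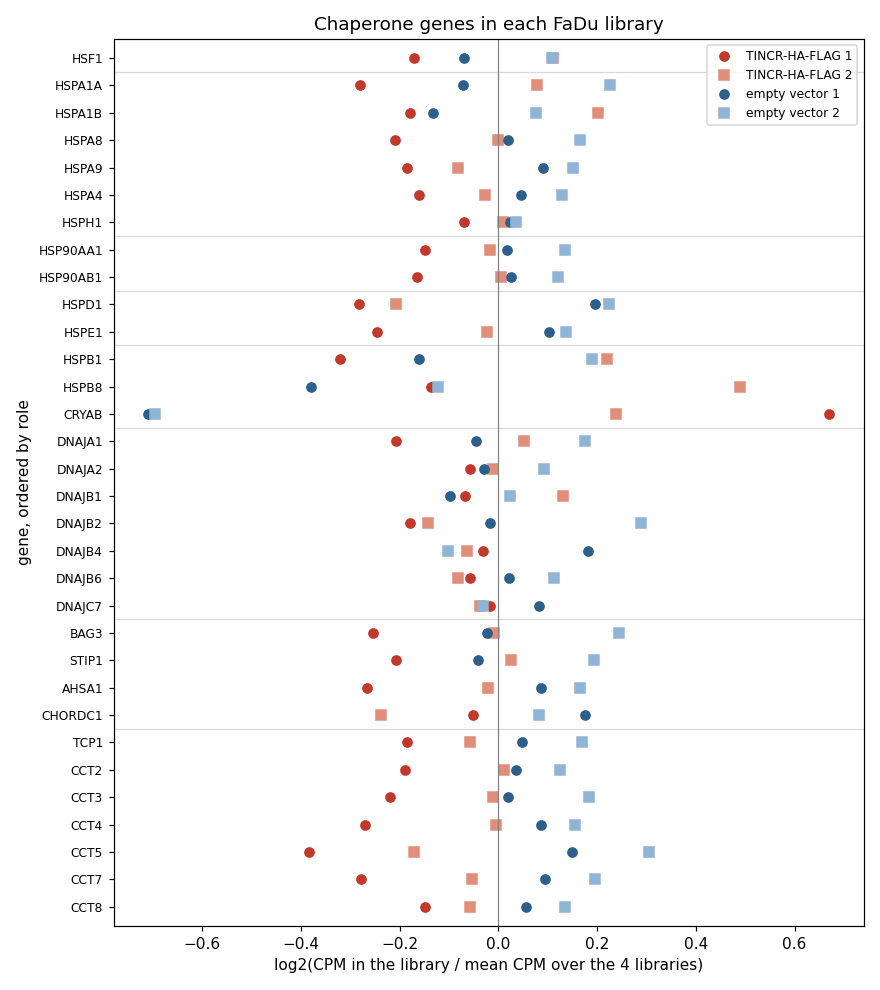
Each row is 1 gene, and the x axis gives log2 of its CPM in a library over its mean CPM across the 4 libraries; red marks are TINCR-HA-FLAG libraries and blue marks empty vector libraries, with circles for replicate 1 and squares for replicate 2. Both red marks lie left of both blue marks for 19 of 32 genes, including all 7 CCT genes, where 17.9% of all genes tested lay so. The replicate 2 mark lies right of the replicate 1 mark in both groups for 27 of 32, where 33.2% of all genes tested showed that.

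Heat shock elements, the DNA motif that HSF1 binds, are shown here because the set is compared by inducibility. RefSeq promoters (GRCh38.p14, 250 bases before to 50 after the start) were at hand for 30 of the 32 genes. The short form searched was GAANNTTC or TTCNNGAA, each its own reverse complement. The long form was GAANNTTC followed after 2 free bases by GAA, or TTCNNGAA followed after 2 free bases by TTC, which are reverse complements of each other, so both strands were covered. Every long match contains a short one. The stretches below are written in the direction of the gene, 60 bases each, with the matched letters in capitals. HSPA8, DNAJB6 and CHORDC1 hold the long form and HSPA1A and HSPA1B the short form.
HSPA1A, chr6:31815417-31815476, plus strand: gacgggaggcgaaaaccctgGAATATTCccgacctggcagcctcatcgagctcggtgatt
HSPA1B, chr6:31827613-31827672, plus strand: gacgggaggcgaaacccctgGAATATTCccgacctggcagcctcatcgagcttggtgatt
HSPA8, chr11:123062327-123062386, minus strand: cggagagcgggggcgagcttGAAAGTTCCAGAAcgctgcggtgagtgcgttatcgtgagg
HSPA8, chr11:123062152-123062211, minus strand: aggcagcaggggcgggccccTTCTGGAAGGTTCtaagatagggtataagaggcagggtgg
DNAJB6, chr7:157336853-157336912, plus strand: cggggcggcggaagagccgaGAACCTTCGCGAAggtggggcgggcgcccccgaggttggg
CHORDC1, chr11:90223070-90223129, minus strand: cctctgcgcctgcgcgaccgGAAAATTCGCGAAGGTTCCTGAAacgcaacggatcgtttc

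The CHORDC1 stretch holds 3 overlapping long matches. DNAJA1 also had a long match, after its start site. In all, 4 of 30 promoters (13.3%) held the long form, where 0.49% of 35116 promoters of the same length did, and 11 of 30 (36.7%) held the short form, where 13.5% did. By class, 2 of 15 stress-induced and 2 of 15 constitutive genes held the long form, and 6 and 5 the short form. Only exact matches inside these promoters were counted, so elements that depart from the 2 forms or lie elsewhere were missed. Genes without either form included the stress-induced HSPH1, HSP90AA1, DNAJB1 and BAG3. The counts therefore do not settle which genes, or which class, carry elements for HSF1. The median log2 fold change was -0.17 for the 4 genes with the long form (range -0.27 to -0.14) and -0.18 for the 26 without it (range -0.50 to 0.48). It was -0.17 for the 11 genes with the short form (range -0.27 to 0.48) and -0.18 for the 19 without it (range -0.50 to 0.071). No test of this split was made. CCT5, HSPD1, CCT7 and DNAJB2, the genes with the lowest log2 fold changes, had neither form, as was the case for 19 of the 30 in all. CHORDC1, the next lowest at -0.27, held both forms. HSF1 and CRYAB had no promoter entry.

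HSF1, the transcription factor that drives the heat shock response, was measured at 121 and 147 CPM with TINCR-HA-FLAG and at 130 and 147 CPM with the empty vector. The groups overlapped, and the log2 fold change was -0.04 (SE 0.12, adjusted p = 0.95, edgeR). Its sign turned to 0.0945 without TINCR-HA-FLAG replicate 1 and to 0.0526 without empty vector replicate 2.

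The strongly heat-inducible HSP70 genes HSPA1A and HSPA1B lie side by side on chromosome 6 (GRCh38, 31815464 to 31817946 and 31827735 to 31830255, plus strand). Their coding sequences differ at 4 of 1926 bases, an identity of 99.8%, so reads could be shared between them and each value alone is uncertain. HSPA1B also shares 36.5% of its annotated exon bases with AL671762.1 on the same strand, a gene with 0 counts in every library. HSPA1A had 103 and 132 CPM with TINCR-HA-FLAG and 119 and 147 CPM with the empty vector (log2 fold change -0.17, SE 0.14, adjusted p = 0.76, edgeR). HSPA1B had 134 and 174 CPM with TINCR-HA-FLAG and 138 and 160 CPM with the empty vector (log2 fold change 0.05, SE 0.14, adjusted p = 0.95, edgeR). In both genes the groups overlapped. With the counts of both genes summed the log2 fold change was -0.051 (SE 0.14, adjusted p = 0.95, edgeR). The ratio of HSPA1A to HSPA1B counts, looked at after their values were seen, was 0.771 and 0.759 with TINCR-HA-FLAG and 0.863 and 0.918 with the empty vector, and so did not overlap. With 2 libraries per group an exact two-sided permutation test cannot go below p = 0.333, so single ratios were not tested.

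HSPA8, the constitutive HSC70, had 2004 and 2316 CPM with TINCR-HA-FLAG and 2348 and 2598 CPM with the empty vector. The groups did not overlap, but the gap between them was smaller than the spread within each (log2 fold change -0.20, SE 0.15, adjusted p = 0.74, edgeR). Per kilobase of annotated exon, the HSPA1A and HSPA1B values together stood at 0.229 and 0.256 of the HSPA8 value with TINCR-HA-FLAG and at 0.213 and 0.228 with the empty vector. HSPA9, the mitochondrial HSP70 known as mortalin, had 286 and 307 CPM with TINCR-HA-FLAG and 346 and 361 CPM with the empty vector (log2 fold change -0.25, SE 0.11, unadjusted p = 0.041, adjusted p = 0.46, edgeR). The HSP110 genes encode nucleotide exchange factors of HSP70. HSPA4 had 201 and 220 CPM with TINCR-HA-FLAG, against 232 and 246 CPM with the empty vector. HSPH1, the heat-inducible HSP110, had 194 and 205 CPM, against 207 and 209 CPM. Their log2 fold changes were -0.18 and -0.06 (SE 0.11 and 0.10).

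The HSP90 pair were the most expressed members beside HSPA8. HSP90AB1, the constitutive form, had 2016 and 2271 CPM with TINCR-HA-FLAG and 2299.9 and 2458 CPM with the empty vector (log2 fold change -0.15, SE 0.14, adjusted p = 0.81, edgeR). HSP90AA1, the inducible form, had 1589 and 1742 CPM with TINCR-HA-FLAG and 1784 and 1934 CPM with the empty vector (log2 fold change -0.16, SE 0.14, adjusted p = 0.78, edgeR). The inducible and the constitutive form kept a narrow ratio: per kilobase of annotated exon, HSP90AA1 stood at 0.448 and 0.436 of HSP90AB1 with TINCR-HA-FLAG and at 0.440 and 0.447 with the empty vector. Between groups this ratio differed by less than it did between libraries of either group.

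**Figure D2:**
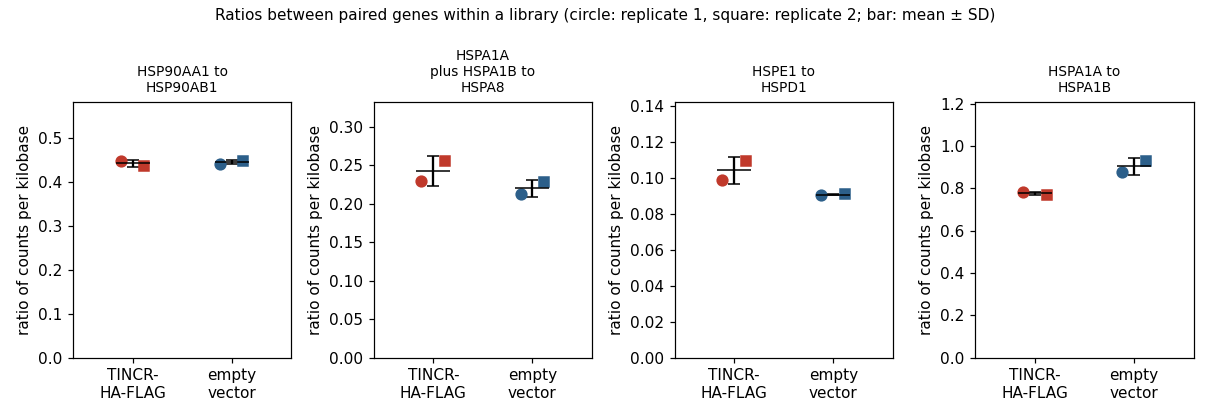
The y axis gives the ratio of counts per kilobase of annotated exon between paired genes within a library, from 0, with 2 libraries per group and the mean ± SD as a bar. HSP90AA1 to HSP90AB1 stays between 0.436 and 0.448 in the 4 libraries, while HSPA1A to HSPA1B is lower in both TINCR-HA-FLAG libraries and HSPE1 to HSPD1 is higher in both. No ratio was tested, and HSPE1 had only 294 to 413 counts per library.

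HSPD1, the mitochondrial HSP60 (chromosome 2, 197486581 to 197516737, minus strand), had the clearest gap between groups of the set. It had 346 and 365 CPM with TINCR-HA-FLAG and 482 and 492 CPM with the empty vector. Both TINCR-HA-FLAG libraries lay well below both empty vector libraries, with a spread inside each group of under 20 CPM. The log2 fold change was -0.45 (SE 0.11, unadjusted p = 0.0019), which missed the threshold in edgeR (adjusted p = 0.14) and passed it in DESeq2 (-0.47, adjusted p = 0.0085). HSPE1 encodes HSP10, the lid of the HSP60 chamber, and is transcribed from the same bidirectional promoter in the other direction. It had 15.97 and 18.6 CPM with TINCR-HA-FLAG and 20.3 and 20.8 CPM with the empty vector (log2 fold change -0.25, SE 0.14, adjusted p = 0.63, edgeR). The ratio of HSPE1 to HSPD1 counts was 0.0461 and 0.0511 with TINCR-HA-FLAG, against 0.0421 and 0.0423 with the empty vector. The HSPE1 level itself is uncertain, because 23.9% of its annotated exon bases overlap HSPD1 on the other strand or HSPE1-MOB4 on the same strand, a read-through gene that had 0 counts in every library. Rows of HSPE1 pseudogenes held counts equal to 34.0% and 26.9% of the HSPE1 counts with TINCR-HA-FLAG and to 22.4% and 22.7% with the empty vector. With pseudogene rows added to their parents, the HSPE1 log2 fold change was -0.18 (SE 0.13, adjusted p = 0.75, edgeR).

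Small HSPs hold unfolding proteins without ATP, and this family had the widest differences among members. HSPB1, or HSP27, had 278 and 404 CPM with TINCR-HA-FLAG and 310 and 396 CPM with the empty vector. Its libraries differed far more within a group than between groups (log2 fold change -0.05, SE 0.18, adjusted p = 0.96, edgeR), and the sign turned to 0.20 without TINCR-HA-FLAG replicate 1 and to 0.14 without empty vector replicate 2. CRYAB, the alpha B-crystallin also found in lens and muscle (chromosome 11, 111908565 to 111923722, minus strand), was near the limit of detection. It had 28 and 25 counts with TINCR-HA-FLAG and 10 and 10 counts with the empty vector, or 1.52 and 1.13 CPM against 0.584 and 0.59 CPM. It was the 1 member wholly above, with a log2 fold change of 1.15 (SE 0.51, unadjusted p = 0.047, adjusted p = 0.48, edgeR). HSPB8, a partner of BAG3 in autophagy of aggregates, had 14 and 26 counts with TINCR-HA-FLAG and 11 and 13 counts with the empty vector (log2 fold change 0.48, SE 0.53, adjusted p = 0.84, edgeR). At these counts neither CRYAB nor HSPB8 passed the threshold, and a level of 3 counts corresponds to 0.134 to 0.176 CPM.

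**Figure D3:**
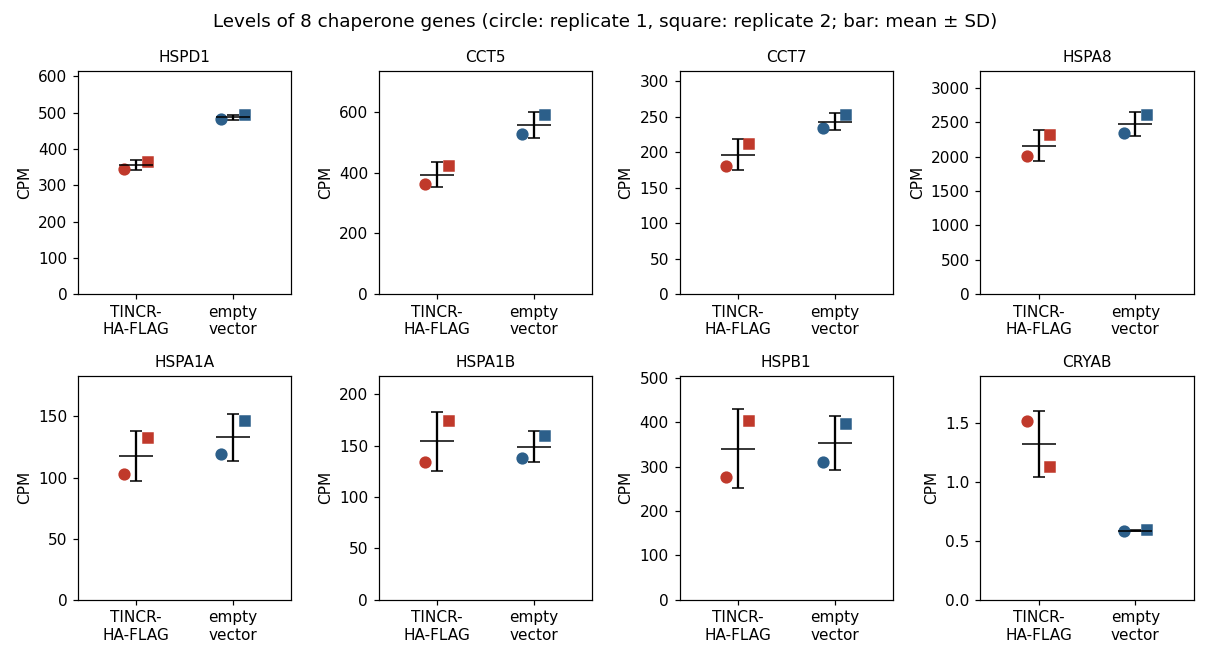
Each panel gives the CPM of 1 gene from 0, with TINCR-HA-FLAG on the left and the empty vector on the right, circles for replicate 1, squares for replicate 2 and the mean ± SD as a bar (n = 2 per group). HSPD1 and CCT5 show a gap between groups, HSPA1A, HSPA1B and HSPB1 overlap, and CRYAB lies below 2 CPM throughout.

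DNAJ proteins, the cochaperones that load HSP70, had a median log2 fold change of -0.09 over 7 genes. DNAJB1, the heat-inducible HSP40, had 161 and 185 CPM with TINCR-HA-FLAG and 157 and 171 CPM with the empty vector (log2 fold change 0.07, SE 0.11, adjusted p = 0.90, edgeR). DNAJA1, DNAJA2, DNAJB4 and DNAJC7 also had groups that overlapped, with log2 fold changes between -0.14 and -0.05. Of these, DNAJA1 and DNAJA2 are general partners of HSC70, and DNAJC7 bridges HSP70 and HSP90. DNAJB6, a suppressor of polyglutamine aggregation, had 144 and 142 CPM with TINCR-HA-FLAG and 152 and 162 CPM with the empty vector (log2 fold change -0.14, SE 0.10, adjusted p = 0.73, edgeR). DNAJB2, which sorts clients to the proteasome, had 25.0 and 25.6 CPM with TINCR-HA-FLAG and 28.0 and 34.6 CPM with the empty vector (log2 fold change -0.31, SE 0.14, unadjusted p = 0.047, adjusted p = 0.48, edgeR). DNAJB2 lies on chromosome 2 at 219279267 to 219286900. A negative log2 fold change was seen for 40 of the 42 other tested genes within 2000000 bases of it, where 49.3% of all genes tested had one. The median of these 42 genes was -0.34. The part of its chromosomal surroundings in the DNAJB2 value was not tested.

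The cochaperones of HSP70 and HSP90 all had negative log2 fold changes, between -0.27 and -0.17. CHORDC1, an HSP90 cochaperone, had 103 and 90.1 CPM with TINCR-HA-FLAG and 120.0 and 112 CPM with the empty vector (log2 fold change -0.27, SE 0.11, unadjusted p = 0.031, adjusted p = 0.42, edgeR). AHSA1, which stimulates the ATPase of HSP90, had 138 and 163 CPM with TINCR-HA-FLAG and 176 and 185 CPM with the empty vector (log2 fold change -0.26, SE 0.11, unadjusted p = 0.043, adjusted p = 0.47, edgeR). In both genes the groups did not overlap. BAG3, a nucleotide exchange factor of HSP70 in aggregate clearance, had 116 and 137 CPM with TINCR-HA-FLAG and 136 and 164 CPM with the empty vector. STIP1, or HOP, which links HSP70 to HSP90, had 214 and 251 CPM with TINCR-HA-FLAG and 239.6 and 282 CPM with the empty vector. In BAG3 and STIP1 the groups overlapped, with log2 fold changes of -0.24 (SE 0.13) and -0.17 (SE 0.13).

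The CCT ring is the chaperonin for actin and tubulin, built of related subunits, and all 7 subunit genes of the set lay lower with TINCR-HA-FLAG in both libraries than in either empty vector library. Of all genes tested 17.9% lay so, and of those with a mean of at least 50 CPM 25.8% did. The log2 fold changes of the 7 subunit genes ran from -0.50 to -0.17 with a median of -0.23. Summed over the 7 genes, the level was 1625 and 1860 CPM with TINCR-HA-FLAG, against 2039 and 2228 CPM with the empty vector. No test between the subunits was made. CCT5 (chromosome 5, 10249921 to 10266412, plus strand) had the lowest log2 fold change of the 7. It had 364 and 422 CPM with TINCR-HA-FLAG and 527 and 587 CPM with the empty vector (log2 fold change -0.50, SE 0.12, unadjusted p = 0.0022, adjusted p = 0.15, edgeR; -0.52, adjusted p = 0.011, DESeq2). AC012640.4, on the other strand, covers 30.1% of the annotated exon bases of CCT5 and had 2 and 3 counts with TINCR-HA-FLAG and 2 and 3 counts with the empty vector. Of the 9 other tested genes within 2000000 bases of CCT5, 7 had a negative log2 fold change and the median was -0.23, and the part of that surrounding in its value was not tested. For HSPD1 the same count was 16 of 17, HSPE1 among them, with a median of -0.20, and its part was likewise not tested. Over all genes tested 49.3% were negative. Other members lower at an unadjusted p under 0.05 (edgeR) had 29 of 54 (CCT7), 4 of 6 (CHORDC1), 11 of 36 (AHSA1) and 19 of 47 (HSPA9). The medians of their neighbours were -0.01, -0.06, 0.11 and 0.06. For CRYAB, the member wholly above, the count was 23 of 30 and the median -0.17.

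CCT7 had 181 and 212 CPM with TINCR-HA-FLAG and 235 and 252 CPM with the empty vector (log2 fold change -0.31, SE 0.12, unadjusted p = 0.023, adjusted p = 0.38, edgeR). The other 5 subunit genes lay between -0.25 and -0.17 and had edgeR adjusted p-values between 0.50 and 0.71. TCP1, the founding subunit, had 264 and 288 CPM with TINCR-HA-FLAG and 310 and 337 CPM with the empty vector. CCT2 had 245 and 282 CPM with TINCR-HA-FLAG, against 286 and 305 CPM with the empty vector. In CCT2, as in CCT3 and CCT4, the higher TINCR-HA-FLAG library came near the lower empty vector library. CCT3 had 384 and 444 CPM with TINCR-HA-FLAG and 454 and 508 CPM with the empty vector. CCT4 had 88.9 and 107 CPM with TINCR-HA-FLAG and 114 and 119.6 CPM with the empty vector, and CCT8 had 98.1 and 105 CPM against 113 and 119.5 CPM.

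**Figure D4:**
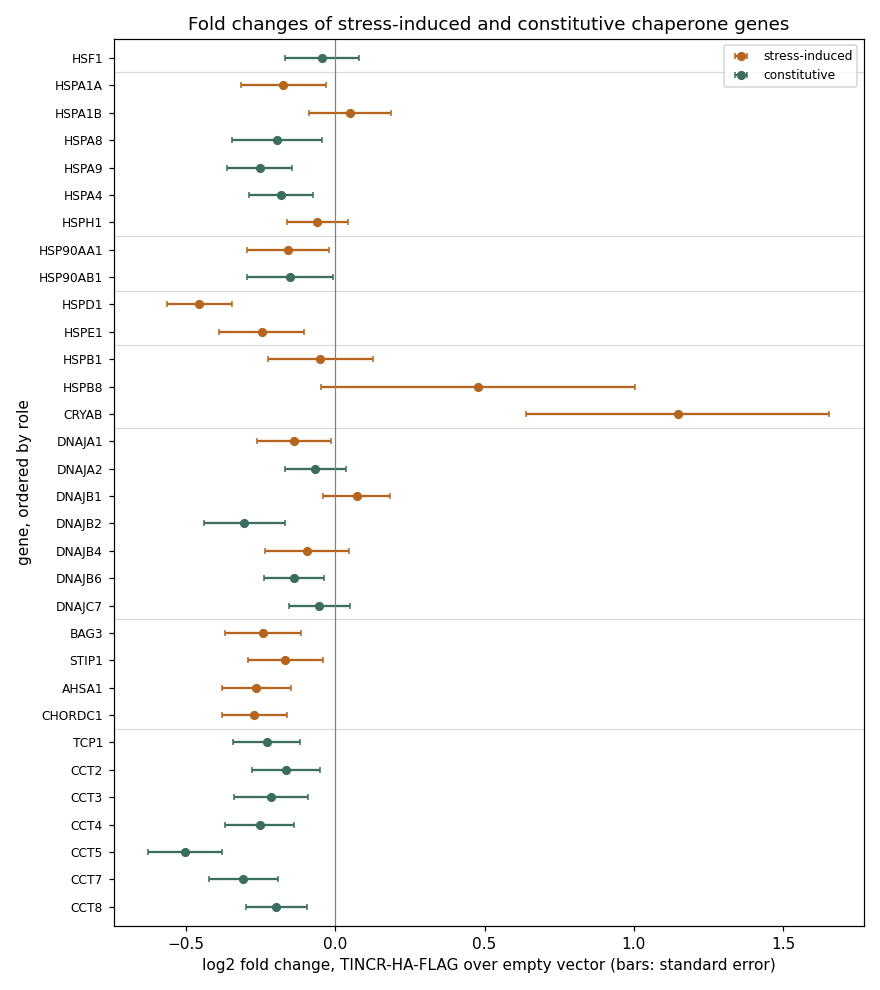
The x axis gives the edgeR log2 fold change of TINCR-HA-FLAG over empty vector with its standard error, for 32 genes in order of role; brown marks are stress-induced and green marks constitutive genes. All 16 constitutive genes lie left of 0, from -0.50 to -0.04, while 4 of 16 stress-induced genes lie right of it. Of these 4, CRYAB and HSPB8 had only 10 to 28 counts per library. Of all genes tested, 49.3% had a negative log2 fold change. None of the 32 is called by edgeR fitted by group alone.

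The set was split by textbook knowledge into 16 stress-induced and 16 constitutive genes. The constitutive class held HSF1, HSPA4, HSPA8, HSPA9, HSP90AB1, DNAJA2, DNAJB2, DNAJB6, DNAJC7 and the CCT genes, and the other members formed the stress-induced class. Log2 fold changes were negative for 12 of 16 stress-induced genes, with a median of -0.15, and for 16 of 16 constitutive genes, with a median of -0.20. Of all genes tested 49.3% were negative, and of those with a mean of at least 50 CPM 59.5% were. Both TINCR-HA-FLAG libraries lay below both empty vector libraries for 6 of 16 stress-induced genes and 13 of 16 constitutive genes, where 17.9% of all genes tested and 25.8% of those with a mean of at least 50 CPM did so. A narrower list of 8 strongly inducible genes (HSPA1A, HSPA1B, HSPH1, HSP90AA1, HSPB1, CRYAB, DNAJB1 and BAG3) had a median of -0.05, with 2 wholly below and 1 wholly above, where 17.9% and 21.7% of all genes tested lay so. Without the CCT genes, the constitutive class of 9 had a median of -0.15, the same as the stress-induced class, and 6 of the 9 lay wholly below. CRYAB and HSPB8, 2 of the 4 stress-induced genes with a positive value, had at most 28 counts in any library. Without them, 12 of 14 stress-induced genes were negative, the median was -0.16 and 6 of the 14 lay wholly below.

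By library, the median deviation of the stress-induced genes from their own 4-library mean was -0.19 and 0.02 (log2) with TINCR-HA-FLAG and -0.03 and 0.14 with the empty vector, so that the groups overlapped. For the constitutive genes it was -0.18 and -0.03 with TINCR-HA-FLAG and 0.04 and 0.14 with the empty vector, without overlap. In both classes each TINCR-HA-FLAG library lay below the empty vector library of the same number. The median SE was 0.13 for the stress-induced and 0.11 for the constitutive genes. Left-out libraries moved both medians. The stress-induced median was -0.03 without TINCR-HA-FLAG replicate 1, -0.26 without TINCR-HA-FLAG replicate 2, -0.26 when empty vector replicate 1 was left out and -0.04 when its replicate 2 was. The constitutive median was -0.12, -0.29, -0.29 and -0.13 in the same order. The difference between the classes was not tested, since the genes were chosen with results of these libraries known.

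By level per kilobase of annotated exon, the members spanned more than 3 orders of magnitude, and the 7 highest held the same ranks in both groups. HSP90AB1 led with 719 CPM per kilobase with TINCR-HA-FLAG and 798 with the empty vector. HSPA8 followed with 445 CPM per kilobase with TINCR-HA-FLAG and 509.96 with the empty vector. HSP90AA1 had 317 with TINCR-HA-FLAG and 354 with the empty vector, and HSPB1 had 208 and 216 in the same order. CCT3, HSPD1 and CCT5 came next. CRYAB and HSPB8 were lowest in both groups, under 0.5 CPM per kilobase. The exon length counts all annotated isoforms, so genes with long unused exons are placed too low. Reads in rows of pseudogenes, of which 106 belong by name to 18 of the 32 members, came to at most 4.43% of the parent's counts in any library, except for HSPE1.

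Other genes of the chaperone network were read from a list of 58, of which 55 were tested. None was called by edgeR fitted by group alone (0 of 55), where 0.549% of all genes tested were called in either direction. An unadjusted p under 0.05 was met by 3 lower and 2 higher, where 4.31% of all genes tested met it on the lower side and 10.2% in either direction. The median log2 fold change was -0.08, with 35 of 55 negative, where 49.3% of all genes tested were. Both TINCR-HA-FLAG libraries lay below both empty vector libraries for 18 of 55 and above them for 7 of 55, where 17.9% and 21.7% of all genes tested did so. FKBP4, the HSP90-bound immunophilin FKBP52, had 193 and 232 CPM with TINCR-HA-FLAG and 261 and 290.3 CPM with the empty vector (log2 fold change -0.37, SE 0.12, unadjusted p = 0.012, adjusted p = 0.31, edgeR). BAG2, an exchange factor that inhibits the ubiquitin ligase CHIP, had 28.7 and 31.1 CPM with TINCR-HA-FLAG and 35.3 and 39.0 CPM with the empty vector (-0.31 on the log2 scale, SE 0.12, adjusted p = 0.40, edgeR). SUGT1, an HSP90 cochaperone of kinetochore assembly, had 51.2 and 44.6 CPM with TINCR-HA-FLAG and 39.5 and 37.2 CPM with the empty vector (log2 fold change 0.32, SE 0.12, adjusted p = 0.37, edgeR). DEDD2, a death effector domain protein, had 23.6 and 27.3 CPM with TINCR-HA-FLAG and 19.0 and 22.001 CPM with the empty vector (0.31 on the log2 scale, SE 0.14, adjusted p = 0.49, edgeR). HSPA6, the strictly inducible HSP70, did not pass the filter on low counts.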

How the data were processed

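Per the labels' protocols, total RNA came from RNeasy columns and the sequencing libraries from the NEBNext Ultra chemistry. The authors deposited raw gene counts, whole numbers keyed by Ensembl identifier, in a table with a column for each library. Tools listed, without their roles, in the submitters' processing notes are STAR 2.7.9a, bcl2fastq 2.20.0.422 and DESeq2 1.32.0, with the build GRCh38. The sources used here do not say how reads were counted, on which strand or against which annotation, so overlapping, antisense and near-identical genes may share reads. The table has 12 other library columns, which were not used. Column headers write TINCR where titles carry a longer construct name, and columns were matched on line, construct and number. Symbols came from a reference table and positions and exon lengths from GENCODE 29 (GRCh38).

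Counts were filtered with filterByExpr, scaled by TMM and fitted over 18771 genes with edgeR 4.0.16 in R 4.3.3 (quasi-likelihood, robust), with Benjamini-Hochberg adjustment and a threshold of 0.05. CPM values use TMM-scaled library sizes. Standard errors are the log2 fold change over the root of F. The tests were checked on simulated counts, with a common dispersion and genes of all levels. Of genes given a 1.5-fold change in either direction, edgeR called 25.1% and DESeq2 16.7%. A gene that was not called is therefore not shown to be unchanged. At these depths 3 counts correspond to 0.134 to 0.176 CPM, for counting error only. Alternatives were DESeq2 1.42.0, other scalings and filters, TINCR left out, the legacy dispersion, a replicate block, each library left out, HSPA1A and HSPA1B summed, and pseudogene rows added to their parents.

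The members, classes and lists were chosen with earlier results of these data known. The text names all members, TINCR, and of the other chaperone genes any called plus those with the 2 lowest p-values in each direction at a mean of at least 10 CPM. HSPA6, HSPE1-MOB4, the ratio of HSPA1A to HSPA1B and the chromosomal neighbours were added after values were seen, as were the count of negative log2 fold changes under each setting and the 50 CPM background.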

Additional observations from a re-analysis of the deposited data

How the results depend on the processing

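No member was called higher under any alternative, and none lower except in DESeq2 (2 of 32) and with the replicate number as a block. DESeq2 called 131 genes higher and 59 lower among all tested, against 85 and 18 in edgeR, and with no filter on low counts edgeR called 47 and 6. With the replicate block, 1317 genes were called higher and 1316 lower, 19 of 32 members were called lower, where 7.01% of all genes tested were, and 13 of 55 other chaperone genes were called in either direction, where 2633 of 18771 genes tested were. The adjusted p ranged from 0.0085 to 0.61 for HSPD1 and from 0.011 to 0.66 for CCT5 over the other alternatives, none but DESeq2 passing the threshold, and was 8.6e-18 and 1.5e-22 with the block. The labels do not say that a number marks a shared culture or day, and with 2 pairs the deviations of same-numbered libraries (correlation 0.37 over genes) do not settle the pairing. Leaving out 1 library at a time gave 69 to 226 genes higher and 45 to 160 lower, 0 to 1 other chaperone genes called (HSPA2, without TINCR-HA-FLAG replicate 2), medians of -0.28 to -0.10 for all members, -0.26 to -0.03 for stress-induced and -0.29 to -0.12 for constitutive genes, and 25 to 30 negative values. It turned the sign of HSF1 (-0.20 to 0.0945), HSPB1 (-0.35 to 0.20), HSPA1B (-0.16 to 0.23), DNAJB1 (-0.0378 to 0.17), DNAJB4 (-0.22 to 0.0134) and DNAJA2 (-0.17 to 0.0005). The cause of these shifts was not tested. Counts near 10 limit CRYAB and HSPB8, which received no adjusted p in DESeq2.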
